A study of Mus musculus with 24 samples.

Results

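The hippocampal transcriptome of 3 mice labelled Tob-KO was compared with that of 3 wild-type (WT) mice, all of them culled 3 h after contextual fear conditioning. These 6 libraries were picked out of the 24 of the series by their genotype and time labels and not by their values. Earlier results of these data were known when the comparison was chosen. The other 18 libraries, from naive mice and from mice culled 15 min or 1 h after conditioning (3 per genotype and time point), entered only where a 3 h difference was set beside the same difference in other mice. All mice had the C57BL/6J background and were 8 to 12 weeks old, and the study's methods describe males. Both genotypes of the 3 h comparison received the same training, in which a tone ended with an inescapable foot shock 3 times in a row, and they were returned to their home cages until the hippocampi were taken. The Tob-KO line carries the deletion in the whole animal and was made before this study. Which part of the gene it lacks, and whether the WT mice were littermates, is not given in the sources used here. The design states biological replicates, so the p-values below measure the spread between mice.

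Tob, listed in the count table as Tob1, belongs to the BTG/Tob family of antiproliferative proteins. Its protein recruits the CCR4-NOT deadenylase to messenger RNAs, which shortens their poly(A) tails, and it also binds SMAD proteins of the BMP pathway. In the hippocampus, a learning experience is followed by a short wave of immediate early genes such as Fos, Arc and Egr1, and then by slower programmes of effector genes, which include secretory and protein-folding genes. At 3 h after training, the early wave has usually faded and these later programmes are under way.

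The libraries were made from poly(A) RNA with a directional kit, and each gene's reads were counted by the authors as whole numbers. Total counts ranged from 29041709 to 34994521 per library at 3 h. Of the 47593 genes listed, 27537 had a count in these 6 libraries and 18255 reached the filter of 0.2 CPM (a count scaled to the size of its library) in 2 of the 6 libraries. Levels are given below as CPM after TMM scaling over the 24 libraries. A gene was called when edgeR's exact test gave a Benjamini-Hochberg adjusted p of at most 0.05, at any fold change. The median standard error (SE) of a log2 fold change was 0.439 for genes under 1 CPM, 0.166 from 1 to 10 CPM, 0.067 from 10 to 100 CPM and 0.046 above, so changes well under 2-fold were within reach only for the more abundant genes. Pairs of libraries of the same group differed by a chi-square of 3.68 to 17.2 per degree of freedom, far above counting noise, so no library was a copy of another of its group.

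The targeted gene was counted in every library and was higher, not lower, in the Tob-KO-labelled libraries. Tob1 (chromosome 11, 94211454 to 94215495, forward strand, GRCm38) stood at 52.8, 55.9 and 54.6 CPM across the Tob-KO-labelled libraries and at 37.9, 38.8 and 40.7 CPM in WT. The groups did not overlap, and Tob1 was 1.38-fold higher in the Tob-KO-labelled libraries (log2 fold change 0.47, SE 0.05, adjusted p = 1.36e-07 with edgeR's exact test). Counts per gene do not show which exons the reads came from. The labels are therefore used as given, and every direction below is that of the Tob-KO-labelled libraries relative to WT.

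Few genes differed at 3 h, and 7 of those called lay within 10 Mb of Tob1, with Tob1 itself counted. Of the 18255 genes tested, 12 were called (0.0657%), 7 higher (0.0383%) and 5 lower (0.0274%) in the Tob-KO-labelled libraries. A change of at least 2-fold was met by 5 of them (0.0274%), and the other 7 were called at smaller changes. The groups did not overlap for any of the 12, as for 12.0% of all genes tested. At an unadjusted p under 0.05 there were 725 genes (3.97%), 408 higher (2.24%) and 317 lower (1.74%). The quasi-likelihood test of edgeR called 1 gene (0.00548%), A830036E02Rik, and DESeq2 called 27 (0.148%), 10 of them among the 12. Leaving out 1 library moved the number of calls to 51 (without Tob-KO replicate 1), 28 (without Tob-KO replicate 2), 6 (without Tob-KO replicate 3) and 43 (without WT replicate 3), and to 15 and 9 without WT replicates 1 and 2. Tob1, A830036E02Rik, Gm11940, Utp18, Krt12 and Gm42418 were called in all 6 of these fits. When each gene's spread was estimated from all 24 libraries, Gm42418 was not called and the others of these were.

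On chromosome 11, 7 of the 318 genes tested within 10 Mb of Tob1 were called (2.2%), with Tob1 itself counted. Elsewhere, 5 of the 17937 genes tested were called (0.0279%). An unadjusted p under 0.05 was reached by 25 genes of the window (7.86%), Tob1 among them, and by 3.9% of the genes elsewhere. The share was highest from 5 to 10 Mb beyond Tob1, with 15 of 129 genes and 4 of the calls, and it was 2.27% and 2.353% on the parts of the chromosome more than 10 Mb away on either side. Changes went both ways, with 13 of the 25 higher and 12 lower in the Tob-KO-labelled libraries. The window surrounds the deleted gene, so effects of the deletion and of any other allele difference carried beside it cannot be told apart in this design.

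The largest changes of the window came from a pair of transcripts on opposite strands of the same stretch, the corneal keratin gene Krt12 (99415666 to 99422259, reverse strand) and the antisense RNA A830036E02Rik (99416956 to 99425497, forward strand). A830036E02Rik was at 1.16, 0.683 and 0.144 CPM across the Tob-KO-labelled libraries and at 21.7, 17.9 and 23.1 CPM in WT. It fell by 4.99 on the log2 scale (SE 0.41, edgeR adjusted p = 4.62e-18), with 35, 21 and 5 counts against 648, 517 and 740. Krt12 was at 0.792, 0.293 and 0.173 CPM against 2.71, 2.04 and 2.21 CPM, and fell by 2.48 (SE 0.43, edgeR adjusted p = 0.000225). Within the Tob-KO-labelled libraries both were highest in replicate 1. The strand setting of the counting is not given in the sources used here, so reads of these overlapping genes may have been shared between them.

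A second antisense RNA, Gm11940 (99387340 to 99387897, forward strand), lies inside the keratin gene Krt10 of the other strand and went the opposite way. Its levels were 2.57, 2.21 and 2.13 CPM across the Tob-KO-labelled libraries and 0.268, 0.588 and 0.593 CPM in WT. It rose 4.71-fold (log2 fold change 2.24, SE 0.28, edgeR adjusted p = 1.92e-09), on 78, 68 and 74 counts against 8, 17 and 19. The same caution on strand applies to it and Krt10.

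Utp18, which encodes a component of the small-subunit processome that matures ribosomal RNA, is a near neighbour of Tob1 (93859243 to 93885766). It was at 28.6, 30.4 and 26.3 CPM across the Tob-KO-labelled libraries and at 19.2, 18.3 and 20.5 CPM in WT, a 1.46-fold difference with no overlap (log2 fold change 0.55, SE 0.07, edgeR adjusted p = 0.000214). Both Utp18 and Tob1 were called in all 6 fits that left out a library. Wipf2 and Ezh1 differed by less.

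Wipf2, whose product binds WASP proteins that drive actin branching, was lower at 86.1, 85.8 and 83.5 CPM against 101.2, 100.4 and 103.2 CPM in WT. Its log2 fold change was -0.26 (SE 0.04, edgeR adjusted p = 0.00501), and the call was lost without Tob-KO replicate 3 (0.355), WT replicate 1 (0.0872) or WT replicate 2 (0.134), these being edgeR adjusted p-values. Ezh1, a histone methyltransferase of Polycomb repressive complexes, was at 77.0, 77.1 and 78.3 CPM against 91.3, 91.0 and 94.9 CPM. It fell by 0.26 (SE 0.04, edgeR adjusted p = 0.00714), and the call stood in 1 of the 6 fits that left out a library, with adjusted p from 0.0152 to 0.26. In both genes the 3 libraries of each group lay within a few CPM of each other, and the gap between groups was several times that spread.

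Among the window's genes that were not called, the gamma-tubulin gene Tubg2 was at 24.4, 24.9 and 26.9 CPM against 32.5, 31.2 and 32.6 CPM (log2 fold change -0.35, SE 0.06, edgeR adjusted p = 0.0524). Meox1, a homeobox gene of somite development, was at 0.990, 1.46 and 1.3 CPM against 0.402, 0.485 and 0.624 CPM (log2 fold change 1.3, SE 0.27, edgeR adjusted p = 0.0551). An antisense RNA overlaps Meox1. Both missed the threshold narrowly. With the filterByExpr filter both were called (edgeR adjusted p = 0.0472 for each), DESeq2 called Tubg2 (adjusted p = 0.0366) and not Meox1 (0.448), and edgeR called Meox1 without Tob-KO replicate 1 (adjusted p = 0.0139) or without WT replicate 3 (0.0286).

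**Figure D1:**
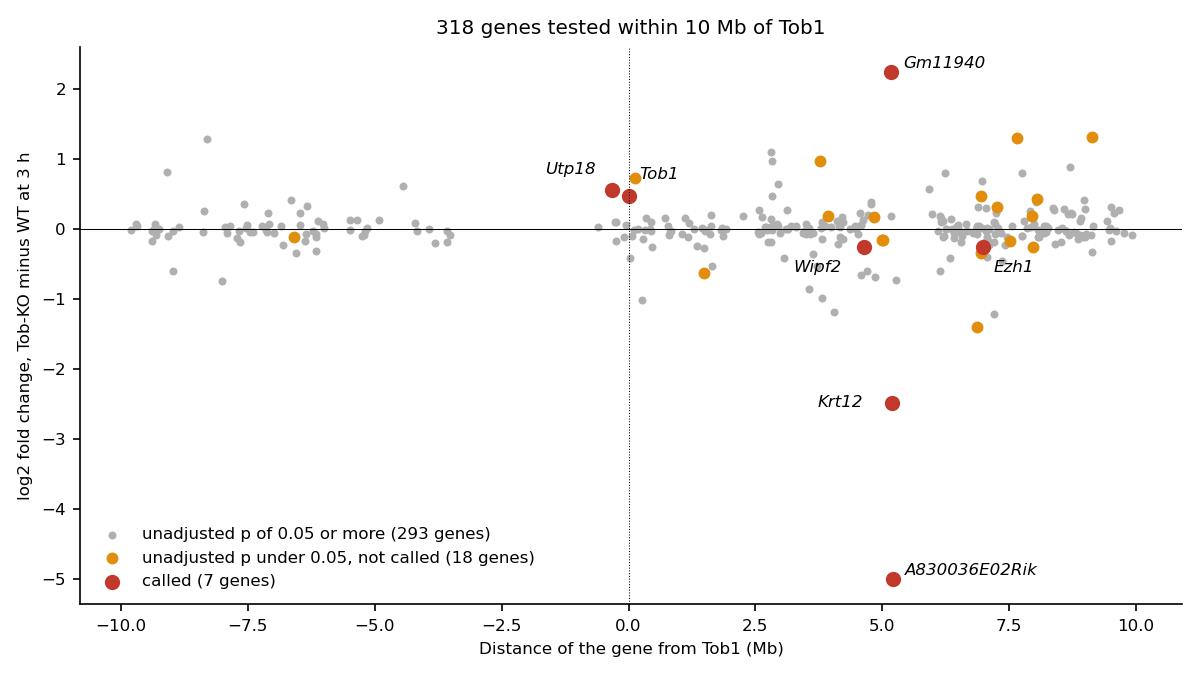
Each point is 1 of the 318 genes tested within 10 Mb of Tob1, by its distance from Tob1 in Mb (x axis) and its log2 fold change at 3 h, labelled Tob-KO minus WT (y axis). The 7 called genes are in red and named, the 18 others with an unadjusted p under 0.05 are in orange, and most of both lie on the right of Tob1, between 0 and 10 Mb.

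Of the 5 calls outside this window, the neuronal transcription factor gene Nhlh1 and the tubulin gene Tubb2b were higher. Nhlh1 (chromosome 1, 172052292 to 172057573), a basic helix-loop-helix factor of developing neurons, was at 1.72, 1.63 and 1.67 CPM across the Tob-KO-labelled libraries and at 0.737, 0.623 and 0.780 CPM in WT, on 52, 50 and 58 against 22, 18 and 25 counts. It was 2.32-fold higher (log2 fold change 1.21, SE 0.19, edgeR adjusted p = 0.00401). DESeq2 did not call it (adjusted p = 0.194), and neither did edgeR's exact test without Tob-KO replicate 3 (adjusted p = 0.105), WT replicate 1 (0.0705) or WT replicate 2 (0.207).

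Tubb2b (chromosome 13, 34126748 to 34130466), a beta-tubulin abundant in young and growing neurons, was at 164.6, 173.1 and 175.5 CPM against 138.0, 145.8 and 143.0 CPM. The difference was 1.20-fold (log2 fold change 0.26, SE 0.04, edgeR adjusted p = 0.0077), and it was called without Tob-KO replicate 1 (0.000948) or WT replicate 3 (0.0361) but in none of the other 4 fits, with adjusted p up to 0.355. Fjx1 (chromosome 2, 102449366 to 102452499), which encodes a secreted glycoprotein that limits dendrite growth, was at 58.2, 58.9 and 54.1 CPM against 48.3, 43.1 and 42.8 CPM. It was 1.27-fold higher (log2 fold change 0.34, SE 0.06, edgeR adjusted p = 0.0235), a call that stood only without WT replicate 1 (0.012) among the 6 fits, with adjusted p up to 0.389.

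The remaining calls were transcripts without a known product. Gm37019 (chromosome 12, 102589277 to 102591410), an unverified transcript inside Itpk1 on the same strand, was at 0.462, 0.260 and 0.461 CPM against 1.21, 0.969 and 1.09 CPM. It fell by 1.46 (SE 0.28, edgeR adjusted p = 0.0086), on 14, 8 and 16 counts against 36, 28 and 35, and was called only without Tob-KO replicate 1 (0.0171) or WT replicate 3 (0.0294). DESeq2 did not call it (adjusted p = 0.354), and its reads cannot be told apart from those of Itpk1.

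Gm42418 (chromosome 17, 39846958 to 39848788) is a long RNA on a stretch where ribosomal RNA is annotated on the other strand. It was at 1320, 2115 and 2105 CPM across the Tob-KO-labelled libraries and at 876, 1006 and 1009 CPM in WT, a 1.91-fold difference (log2 fold change 0.93, SE 0.17, edgeR adjusted p = 0.000328). Tob-KO replicate 1 was the lowest of its group but still above all WT libraries. Gm23935, Gm24270 and Lars2, chosen after their values were seen, likewise had all Tob-KO-labelled libraries above WT, with replicate 1 the lowest of them. Gm23935 was at 179, 333 and 376 CPM against 129, 163 and 169.6 CPM. Lars2, the mitochondrial leucyl-tRNA synthetase gene, was at 141, 228 and 270.3 CPM against 102, 129 and 135 CPM. None of the 3 was called over all 6 libraries (edgeR adjusted p = 0.091 for Gm23935, 0.107 for Gm24270 and 0.123 for Lars2), and all 3 were called without Tob-KO replicate 1, with log2 fold changes of 1.20, 1.12 and 1.02. The mitochondrial ribosomal RNA gene mt-Rnr1, also named after its values were seen, had a log2 fold change of -0.27 (SE 0.06, edgeR adjusted p = 0.344). DESeq2 called Gm24270 higher and mt-Rnr1 and mt-Rnr2 lower. How much ribosomal RNA passed the poly(A) selection in each library, and its part in these values, was not tested.

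**Figure D2:**
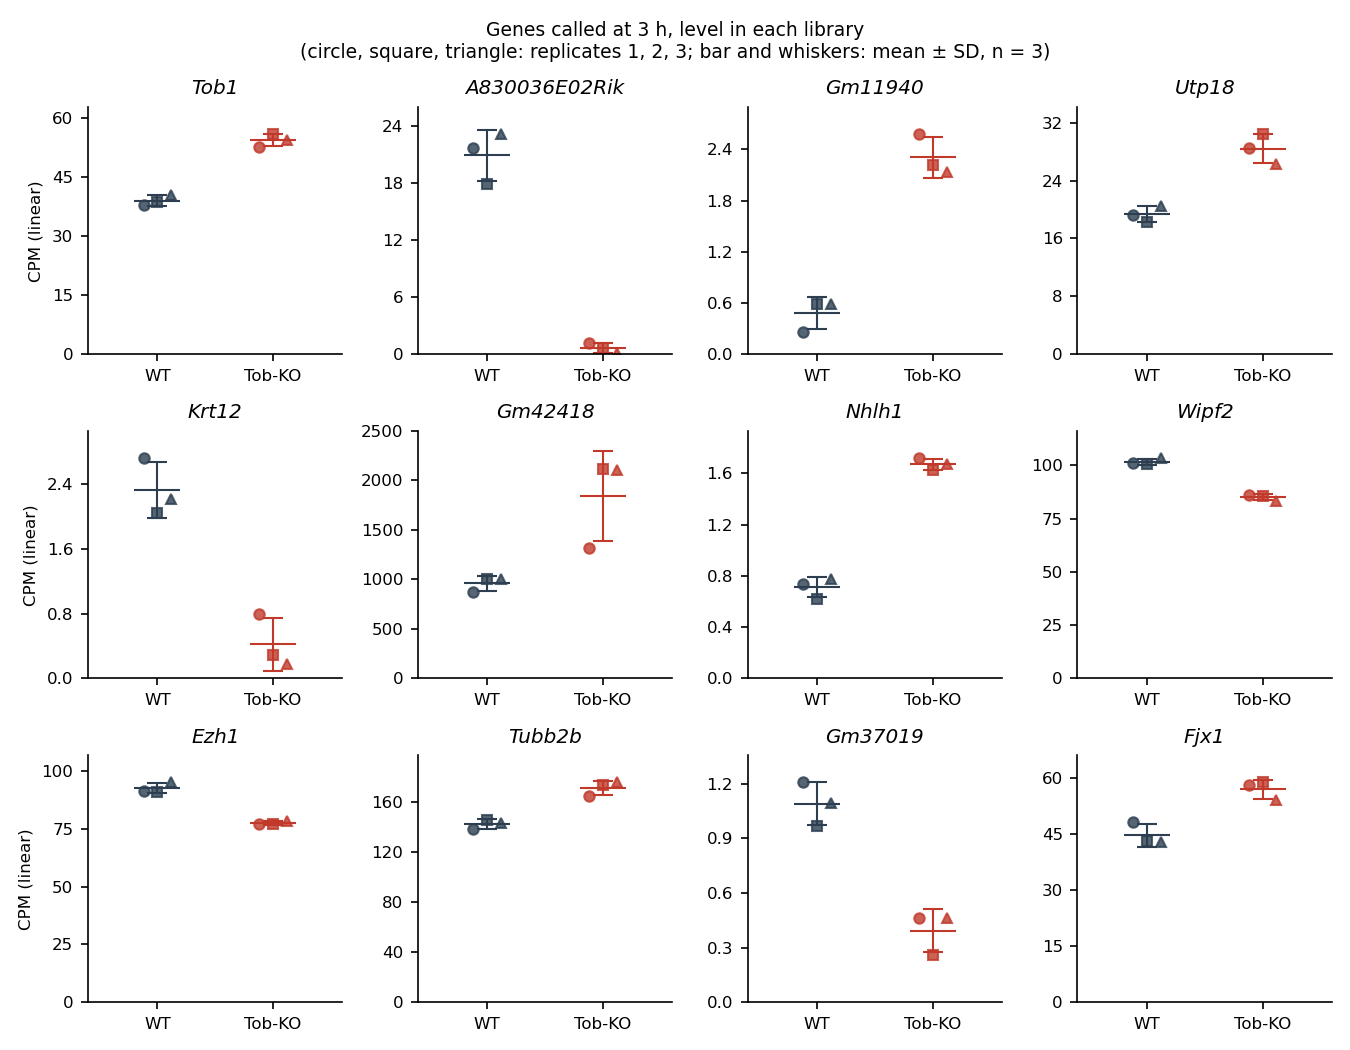
Level of the 12 called genes in each of the 6 libraries of 3 h, in CPM on a linear axis from 0, with the mean and SD of the 3 libraries per group. No gene's groups overlap, Wipf2 and Ezh1 sit at 83.5 to 103.2 and 77.0 to 94.9 CPM with tight groups, and Tob-KO replicate 1 lies apart from replicates 2 and 3 in Gm42418.

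Of the next 10 genes by p, 3 served the folding of proteins in the endoplasmic reticulum (ER). In the ER, the HSP70 chaperone BiP, encoded by Hspa5, holds unfolded chains, lectin chaperones and disulfide isomerases fold them, and an unfolded protein response run by XBP1, ATF6 and PERK raises these genes together when secretory load grows. ATF6 and XBP1 act through the ER stress response element, whose letters are CCAAT, then 9 bases of any kind, then CCACG. In the RefSeq promoters of GRCm38.p6 (250 bases before to 50 bases after a gene's start, both strands searched), 7 of the 18 ER genes with an entry held this motif (38.9%), against 37 of 27025 genes (0.137%). The response acts on genes of this kind, so the list's higher share does not bear on the 3 h difference. Of the members lower at 3 h at an unadjusted p under 0.05, 6 of 13 held the motif (46.2%), against 1 of the other 5 (20%). The part of the motif in the 3 h values was not tested. The sites are shown because they are a sequence feature that several of the genes described next have in common. Each is printed on the strand that carries the motif, with the motif in capitals, and positions count from the gene's start.
Hspa5, chr2:34772020-34772049, positions -65 to -47: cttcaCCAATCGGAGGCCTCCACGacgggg
Hsp90b1, chr10:86705632-86705661, positions -212 to -194: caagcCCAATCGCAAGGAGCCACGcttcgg
Hsp90b1, chr10:86705527-86705556, positions -107 to -89: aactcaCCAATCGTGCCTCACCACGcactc
Calr, chr8:84847069-84847098, positions -162 to -144: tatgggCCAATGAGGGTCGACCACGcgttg
Canx, chr11:50325794-50325823, positions -145 to -127: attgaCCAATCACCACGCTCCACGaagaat
Pdia6, chr12:17266486-17266515, positions -98 to -80: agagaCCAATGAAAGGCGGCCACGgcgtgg
Dnajc3, chr14:118937822-118937851, positions -105 to -87: cacaaCCAATCAGCGCCAACCACGacccgg
Creld2, chr15:88819515-88819544, positions -126 to -108: tgtggaCCAATTGAGGCTCGCCACGagaag
A match is a description of letters, and the other members may use variants of the element that were not searched.

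All 20 ER genes of the list had lower estimates in the Tob-KO-labelled libraries at 3 h, with a median log2 fold change of -0.271 beside -0.002 over all genes tested. An unadjusted p under 0.05 was reached by 15 of the 20, all lower (1.74% of all genes), and 16 had groups that did not overlap, all lower (5.71% of all genes). None passed the adjustment over all genes in edgeR's exact test, whereas DESeq2 called 5 of them lower (0.0712% of all genes). The quasi-likelihood test gave 16 lower at an unadjusted p under 0.05 (2.81% of all genes). The summed level of the list was 2366 to 2831 CPM across the Tob-KO-labelled libraries and 2980 to 3244 CPM in WT. The list was written with earlier results of these data known.

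Hspa5 itself was at 268, 336.5 and 234 CPM across the Tob-KO-labelled libraries and at 464, 396 and 374 CPM in WT (log2 fold change -0.56, SE 0.13, edgeR adjusted p = 0.0551). Sdf2l1, a partner of BiP, was at 10.9, 13.0 and 8.73 CPM against 18.2, 16.0 and 15.6 CPM (log2 fold change -0.62, SE 0.14, edgeR adjusted p = 0.152). Manf, an ER-resident and secreted neurotrophic factor, was at 39.8, 45.5 and 36.6 CPM against 57.6, 52.9 and 50.8 CPM (log2 fold change -0.41, SE 0.08, edgeR adjusted p = 0.0524). In each of these the highest Tob-KO library was replicate 2 and the lowest was replicate 3, and none reached the lowest WT library. Manf overlaps other annotated genes on both strands, so its reads may be shared.

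Xbp1, the transcription factor of the response, was at 74.2, 70.7 and 61.1 CPM against 93.3, 82.1 and 87.8 CPM (log2 fold change -0.36, SE 0.08, edgeR adjusted p = 0.0551). Among the disulfide isomerases, Pdia4 had the largest difference, at 39.9, 41.2 and 33.2 CPM against 57.5, 50.2 and 46.6 CPM (log2 fold change -0.44, SE 0.10, edgeR adjusted p = 0.091). Pdia6 had -0.33, Pdia3 -0.24 and P4hb -0.10. The abundant chaperones with a printed site had log2 fold changes of -0.31 (Hsp90b1, SE 0.08), -0.31 (Calr, SE 0.09) and -0.10 (Canx, SE 0.04). Of the genes that clear misfolded chains, Herpud1 was at 41.3, 37.7 and 38.6 CPM against 47.3, 47.8 and 46.7 CPM (log2 fold change -0.28, SE 0.05, edgeR adjusted p = 0.102), and Sel1l had -0.10. Atf4 and Ddit3, transcription factors of the PERK arm, had -0.01 (SE 0.06) and -0.19 (SE 0.10) with groups that overlapped.

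DESeq2 called Manf (adjusted p = 0.0205), Xbp1 (0.0248), Pdia4 (0.033), Sdf2l1 (0.0345) and Hsp90b1 (0.0436). Without Tob-KO replicate 2, edgeR's exact test called 8 ER genes, among them Hspa5 (log2 fold change -0.72, adjusted p = 5.14e-06) and Manf (-0.50, 0.00103). It called 2 without Tob-KO replicate 1, 4 without WT replicate 3 and 0 without Tob-KO replicate 3, WT replicate 1 or WT replicate 2. The list's median stayed between -0.311 and -0.205 over these fits, and the number of its genes with an unadjusted p under 0.05 was 13 to 16.

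**Figure D3:**
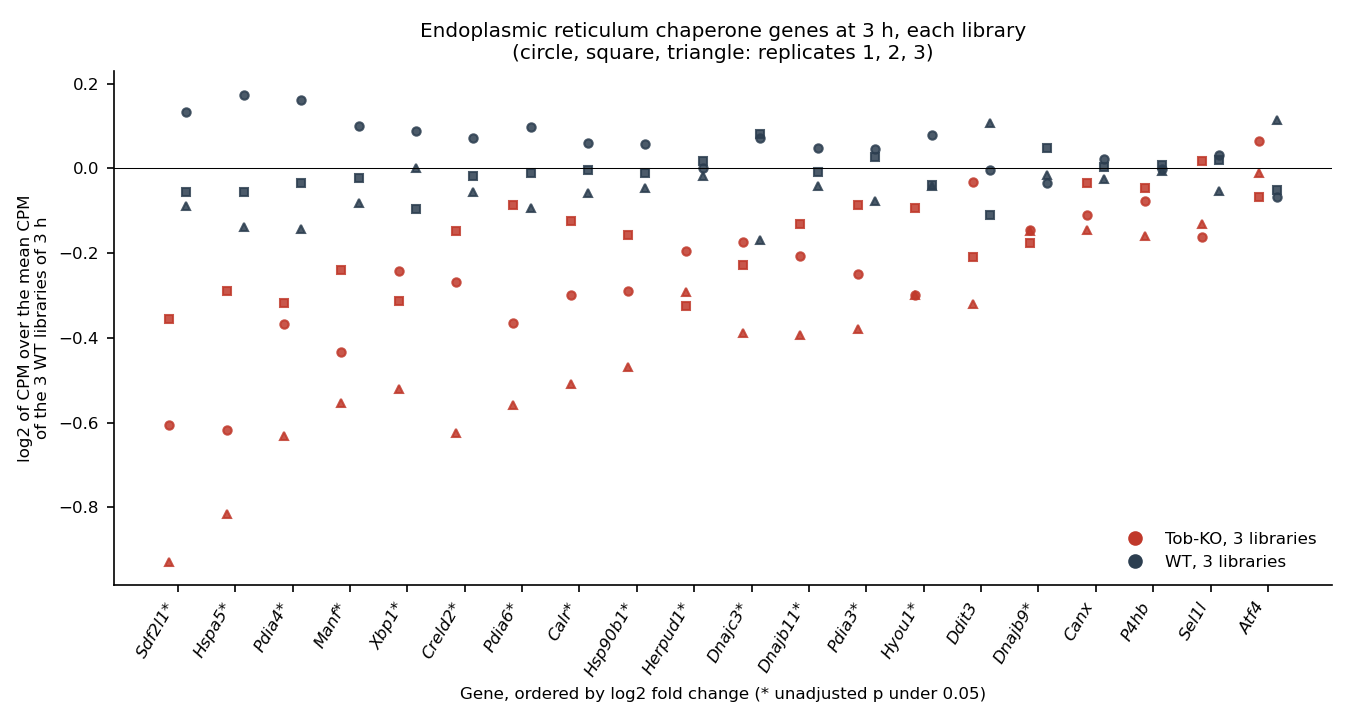
The 20 ER genes at 3 h, each library as the log2 of its CPM over the mean of the 3 WT libraries (y axis), with genes ordered by log2 fold change (x axis) and an asterisk for an unadjusted p under 0.05. The Tob-KO-labelled libraries lie below the WT libraries for 16 genes, and Tob-KO replicate 3 is the lowest of the 6 libraries for most of them.

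Cytosolic heat shock genes had smaller differences of the same sign. Of 18 tested, 5 were lower and 0 higher at an unadjusted p under 0.05 (1.74% and 2.24% of all genes). The median was -0.109 and none was called. Chordc1, an HSP90 co-chaperone, was at 59.7, 71.8 and 63.5 CPM against 79.9, 78.9 and 77.4 CPM (log2 fold change -0.28, SE 0.07, edgeR adjusted p = 0.186). Hspa8, the constitutive HSP70, was at 1540.0, 1644 and 1493 CPM against 1766, 1738 and 1706 CPM (log2 fold change -0.16, SE 0.05, edgeR adjusted p = 1). Stip1 (-0.14), Hspa1b (-0.38) and Hspb1 (-0.51) were the others, and the groups overlapped in Stip1 and Hspa1b. Here too Tob-KO replicate 2 was the nearest to WT in Chordc1, Hspa8 and Stip1.

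Of the immediate early genes, which neurons switch on within minutes of activity, 20 of 26 had negative estimates at 3 h and 6 had positive ones. Over all genes tested, 50.74% of estimates were negative. Among the 26, 11 were lower and 0 higher at an unadjusted p under 0.05 (1.74% and 2.24% of all genes). Groups did not overlap for 9 in the lower direction and 1 in the higher (5.71% and 6.33% of all genes). None of the 26 was called by edgeR's exact test. The median log2 fold change was -0.232, and -0.129 without WT replicate 3. Summed over the list, the Tob-KO-labelled libraries were at 978.9 to 1049 CPM and WT at 1088 to 1325 CPM.

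Arc, a regulator of AMPA receptor removal, was at 54.5, 70.5 and 62.2 CPM across the Tob-KO-labelled libraries and at 87.9, 86.6 and 160.4 CPM in WT (log2 fold change -0.85, SE 0.23, edgeR adjusted p = 0.133). WT replicate 3 was far above the other WT libraries. Without it, the log2 fold change of Arc was -0.49 and the gene was called (edgeR adjusted p = 0.0103), as it was without WT replicate 1 (0.0382) or WT replicate 2 (0.0435). Fos, the partner of Jun in the AP-1 factor, was at 8.45, 7.12 and 5.96 CPM against 13.0, 9.0 and 16.0 CPM (log2 fold change -0.83, SE 0.21, edgeR adjusted p = 0.217), and DESeq2 called it (adjusted p = 0.0385).

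Egr1, a zinc finger factor needed for late plasticity, was at 120.7, 91.4 and 89.1 CPM against 135, 124 and 187 CPM (log2 fold change -0.57, SE 0.17, edgeR adjusted p = 0.254). Its relative Egr2 had -1.14 (SE 0.33) at 0.683 to 3.31 CPM, and Egr3 had -0.36 (SE 0.11). Npas4, a factor of inhibitory synapse formation, was at 7.33, 6.90 and 5.90 CPM against 8.44, 10 and 12.5 CPM (log2 fold change -0.63, SE 0.16, edgeR adjusted p = 0.297). Nr4a1, an orphan nuclear receptor, was at 43.5, 40.7 and 44.6 CPM against 51.7, 49.1 and 69.0 CPM (log2 fold change -0.41, SE 0.12, edgeR adjusted p = 0.355), and its relatives Nr4a2 and Nr4a3 had -0.34 (SE 0.11) and -0.10 (SE 0.08).

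WT replicate 3 was the highest of the 6 libraries in Arc, Fos, Egr1, Egr2, Egr3, Npas4 and Nr4a1. Without it, 9 of 26 genes were lower at an unadjusted p under 0.05. Jun (0.01), Egr4 (0.04), Klf6 (0.08) and Jund (0.10) had log2 fold changes near 0 or above, and Atf3, a stress-responsive factor, was at 1.06, 0.943 and 0.778 CPM against 0.636, 0.727 and 0.437 CPM (log2 fold change 0.62, SE 0.27, edgeR adjusted p = 1).

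**Figure D4:**
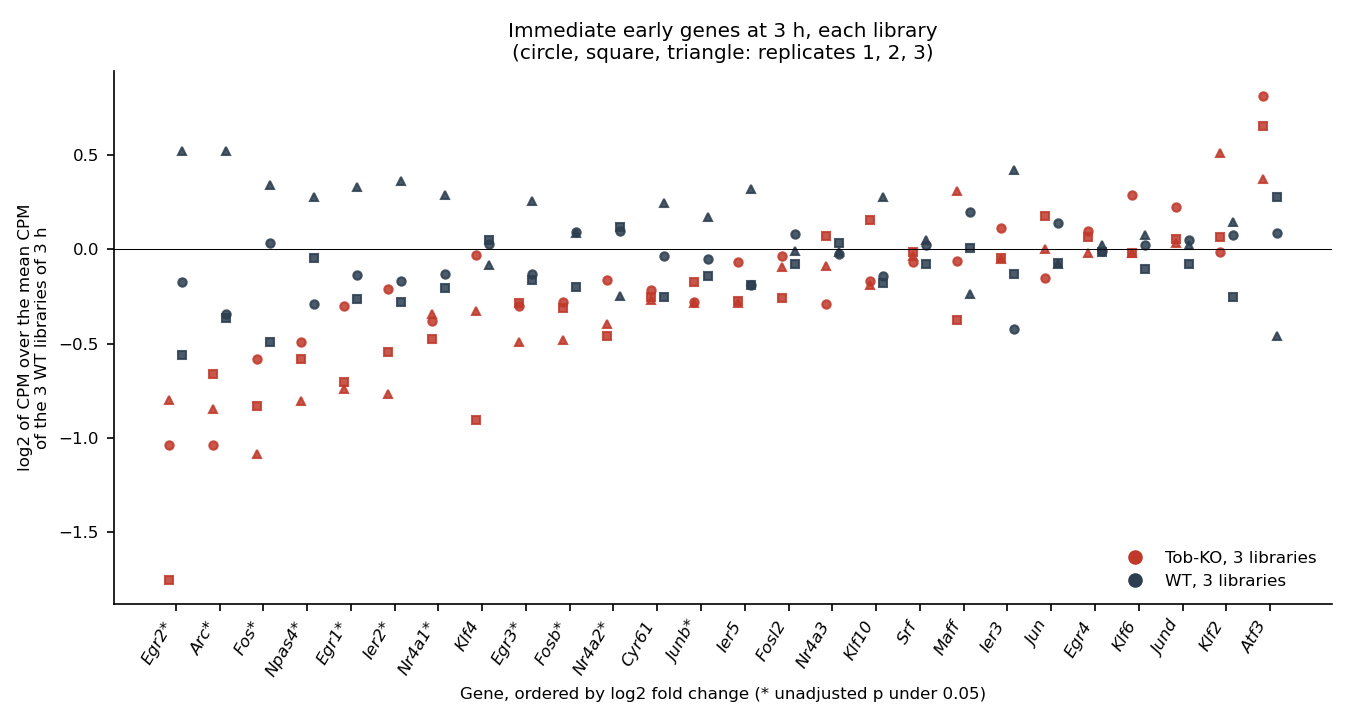
The 26 immediate early genes at 3 h, each library as the log2 of its CPM over the mean of the 3 WT libraries (y axis), with genes ordered by log2 fold change (x axis) and an asterisk for an unadjusted p under 0.05. WT replicate 3 is the highest library for Egr2, Arc, Fos, Npas4, Egr1 and Nr4a1, while the groups mix for the genes on the right.

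The slower effector genes of activity went both ways. Of 28 tested, 3 were lower and 3 higher at an unadjusted p under 0.05 (1.74% and 2.24% of all genes). The median was 0.053 and none was called. Homer1, a postsynaptic scaffold, was at 163, 173 and 150.4 CPM against 199.9, 178 and 238 CPM (log2 fold change -0.34, SE 0.10, edgeR adjusted p = 0.321), and the prohormone convertase gene Pcsk1 had -0.29 (SE 0.08) and Spred1 -0.17 (SE 0.05). On the higher side stood the enkephalin precursor gene Penk (0.41, SE 0.17), the cyclooxygenase gene Ptgs2 (0.33, SE 0.12) and the G protein regulator gene Rgs2 (0.21, SE 0.07). The 6 had edgeR adjusted p-values from 0.321 to 1.

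Genes that work with Tob itself showed no call besides Tob1. In the Tob and Btg family, Tob2 had a log2 fold change of -0.07 (SE 0.10), Btg1 0.01 (SE 0.06) and Btg2 -0.12 (SE 0.11). Of 26 genes of deadenylation and decapping, none had an unadjusted p under 0.05, and the log2 fold changes ran from -0.160 to 0.112. None did among the 18 genes of proteins that bind 3′ untranslated regions either, with a range of -0.140 to 0.121. Set against naive mice, the genotype difference of 5 deadenylation and decapping genes was more negative at 3 h and that of 1 more positive. These had an unadjusted p under 0.05 in the quasi-likelihood test (2.30% and 2.36% of all genes). Set against the mean of the other times, 2 were more negative and 0 more positive (2.47% and 2.61%). Smad7, the inhibitory SMAD, was at 27.0, 24.6 and 28.7 CPM against 23.5, 22.3 and 21.6 CPM (log2 fold change 0.25, SE 0.07, edgeR adjusted p = 0.963) and was the only member of 25 BMP and SMAD genes with an unadjusted p under 0.05. This 1 member is 4% of the list, near the 2.24% of all genes higher at that level. The summed BMP and SMAD level was 1004 to 1023 CPM against 969.1 to 988.7 CPM in WT. Several other lists, among them the clock and endothelial lists, also had sums that did not overlap. Of 27 cell cycle genes, Cdk4 (0.19, SE 0.06) and Mcm2 (0.35, SE 0.13) were higher at an unadjusted p under 0.05 and none was lower. Over all genes the shares were 2.24% higher and 1.74% lower.

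In the ERK pathway, a kinase cascade of synaptic plasticity, 2 of 26 genes were lower at an unadjusted p under 0.05 (1.74% of all genes) and none higher. These were the feedback inhibitors Spry4, at 14.3, 14.5 and 13.7 CPM against 18, 16.3 and 17.9 CPM (log2 fold change -0.30, SE 0.07, edgeR adjusted p = 0.695), and Spred1. Dusp1, which encodes the MAP kinase phosphatase MKP-1, was at 15.6, 14.2 and 15.8 CPM against 18.4, 13.6 and 21.5 CPM, with overlapping groups (log2 fold change -0.24, SE 0.15, edgeR adjusted p = 1).

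The genes the study singled out from its sequencing came from a pathway analysis of its earliest time after conditioning, not of 3 h. That analysis proposed Esr1 as an upstream regulator. None of these genes was called at 3 h. Lcn2, the acute phase gene of lipocalin-2, was at 0.330, 0.260 and 0.144 CPM across the Tob-KO-labelled libraries and at 0.435, 0.9 and 0.218 CPM in WT, where a log2 fold change of -1.08 had an SE of 0.57. Crhr2 (0.01, SE 0.48), Esr1 (0.01, SE 0.33), Avpr1a (0.68, SE 0.57) and Mc3r (1.5, SE 0.73) had a wide spread between libraries, overlapping groups and edgeR adjusted p-values of 1.

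Of the neurogenesis and neuronal helix-loop-helix genes, 21 of 22 had positive estimates, beside 8992 of 18255 over all genes tested. Nhlh1 was their only call (0.0383% of all genes were called higher). The list was written with earlier results of these data known. At an unadjusted p under 0.05, 3 were higher and 0 lower (2.24% and 1.74% of all genes). The median was 0.128, and it was 0.210 without Tob-KO replicate 1 and 0.078 without Tob-KO replicate 2. Igfbpl1, a gene of immature neurons, was at 3.93, 6.28 and 6.74 CPM against 3.38, 2.39 and 2.62 CPM (log2 fold change 1.01, SE 0.22, edgeR adjusted p = 0.091), and DESeq2 called it (adjusted p = 0.0385). Eomes, which marks intermediate progenitors, was at 1.29, 1.14 and 2.02 CPM against 1.34, 0.346 and 0.437 CPM with overlapping groups (log2 fold change 1.06, SE 0.48, edgeR adjusted p = 1). Dcx, Neurod1, Prox1 and Mki67 had overlapping groups and log2 fold changes of 0.08, 0.13, 0.12 and 0.28.

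Other genes just short of the threshold included Tfrc, the transferrin receptor that imports iron, at 126, 122 and 144 CPM against 92.5, 105 and 109 CPM (log2 fold change 0.35, SE 0.08, edgeR adjusted p = 0.0551). It was called by DESeq2 (adjusted p = 0.024) and by edgeR without Tob-KO replicate 1, Tob-KO replicate 2 or WT replicate 3. Prr7, a synaptic membrane protein gene, was at 43.3, 44.5 and 43.6 CPM against 34.6, 35.1 and 37.2 CPM (log2 fold change 0.29, SE 0.05, edgeR adjusted p = 0.0551). The transcription factor gene Onecut1 had 1.51 (SE 0.34) and Cml5 -1.20 (SE 0.23), each under 1.4 CPM in all libraries and each with an edgeR adjusted p of 0.0551. The groups did not overlap in any of these 4, as for 12.0% of all genes tested. These 4 were named for their small p, so the separation adds nothing to it.

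Markers of other cells and regions were measured in the same libraries, and those of the hippocampus were high in both groups. Summed hippocampal neuron markers, including Slc17a7 and Prox1, were at 8877 to 9722 CPM across the Tob-KO-labelled libraries and 8478 to 9824 CPM in WT, and the CA1, CA2 and CA3, and dentate lists overlapped between groups as well. In bulk tissue, fewer cells of a type and less RNA per cell cannot be told apart. Choroid plexus content varied widely: its transthyretin gene Ttr was at 1771, 24.9 and 22.7 CPM across the Tob-KO-labelled libraries and at 1855, 2432 and 17.2 CPM in WT. The sum of all 18 choroid plexus markers ran from 253.9 to 3383 CPM and from 237.8 to 4693 CPM, all 18 had negative log2 fold changes (median -1.06) and none had an unadjusted p under 0.05. Without Tob-KO replicate 1 the median was -3.387, with all 18 lower at an unadjusted p under 0.05 and none called. Tob-KO replicate 1 and WT replicates 1 and 2 were the rich libraries. The ER sums were 2579, 2831 and 2366 CPM across the Tob-KO-labelled libraries and 3244, 3079 and 2980 CPM in WT. In WT the libraries rich in choroid plexus markers had the higher ER sums. The rich Tob-KO replicate 1 lay between the others of its group, and the poor WT library was above every Tob-KO-labelled library. The part of choroid plexus content in the ER values was not tested.

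Of 14 oligodendrocyte genes 13 had positive estimates, 4 of them at an unadjusted p under 0.05 (Mog 0.28, Opalin 0.26, Cldn11 0.23 and Mal 0.20). Over all genes, 2.24% were higher at that level. The summed oligodendrocyte levels overlapped, at 5642 to 6706 CPM against 5267 to 6277 CPM. Oligodendrocyte precursor genes summed to 331.3 to 347.1 CPM against 299.9 to 319.0 CPM, with Pdgfra at 0.18 (SE 0.06). These sums did not overlap, nor did those of the immediate early, Tob and Btg, clock, ER, neurogenesis, BMP and SMAD, and endothelial lists. Sums of the remaining lists overlapped. Groups did not overlap for 12.0% of all single genes tested, which is a share of genes and not of list sums. Endothelial genes summed to 319.2 to 363.2 CPM against 294.3 to 310.3 CPM. All 12 had positive estimates, beside 8992 of 18255 over all genes tested, and Kdr (0.33, SE 0.11) and Itm2a (0.23, SE 0.08) had an unadjusted p under 0.05. The endothelial median was 0.144 at 3 h, and it was -0.017, -0.186 and -0.048 in naive, 15 min and 1 h mice. Astrocyte, microglia, pericyte and fibroblast sums overlapped, and none of the genes in these lists was called. Of 17 interneuron genes, 11 had positive and 6 negative estimates, and their sums overlapped at 1536 to 1723 CPM against 1484 to 1659 CPM. The 2 with an unadjusted p under 0.05 were the neuropeptide genes Npy at 32.2, 26.2 and 27.1 CPM against 19.9, 18.6 and 24.7 CPM (log2 fold change 0.43, SE 0.12, edgeR adjusted p = 0.38) and Sst at 161.5, 154.5 and 145 CPM against 138, 125.5 and 129 CPM (0.22, SE 0.05, adjusted p = 0.26). Whether the tissue taken differed in these cells, and its part in the results, was not tested.

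In the mice of the other time points, 5 of the genes called at 3 h were called again with the same sign at 1 or more times, all of them on chromosome 11. Of the 12 genes called at 3 h, 4 were called with the same sign in naive mice (0.0381% of all genes called there), 5 at 15 min (0.746%) and 4 at 1 h (0.121%). Tob1, Gm11940 and Krt12 were called at every time point. Utp18 had log2 fold changes of 0.43, 0.55 and 0.51 in naive, 15 min and 1 h mice beside 0.55 at 3 h. For A830036E02Rik the values were -6.81, -1.47 and -2.82 beside -4.99, and at 15 min the Tob-KO-labelled libraries stood at 7.14 ± 1.22 CPM (SD, n = 3) and WT at 19.8 ± 8.25 CPM.

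Ezh1, Tubb2b, Fjx1, Wipf2 and Gm37019 were not called in the mice of other times. Ezh1 had log2 fold changes of -0.07, -0.07 and -0.08 and Fjx1 of 0.05, 0.03 and 0.04 in naive, 15 min and 1 h mice. Nhlh1 kept its sign with 0.45, 0.60 and 0.60. Gm42418 went the other way in naive mice (-0.88, SE 0.32) and at 15 min (-0.73, SE 0.17, edgeR adjusted p = 0.0157), where it was called lower. Its WT libraries ran from 837 to 2309 CPM in naive mice.

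**Figure D5:**
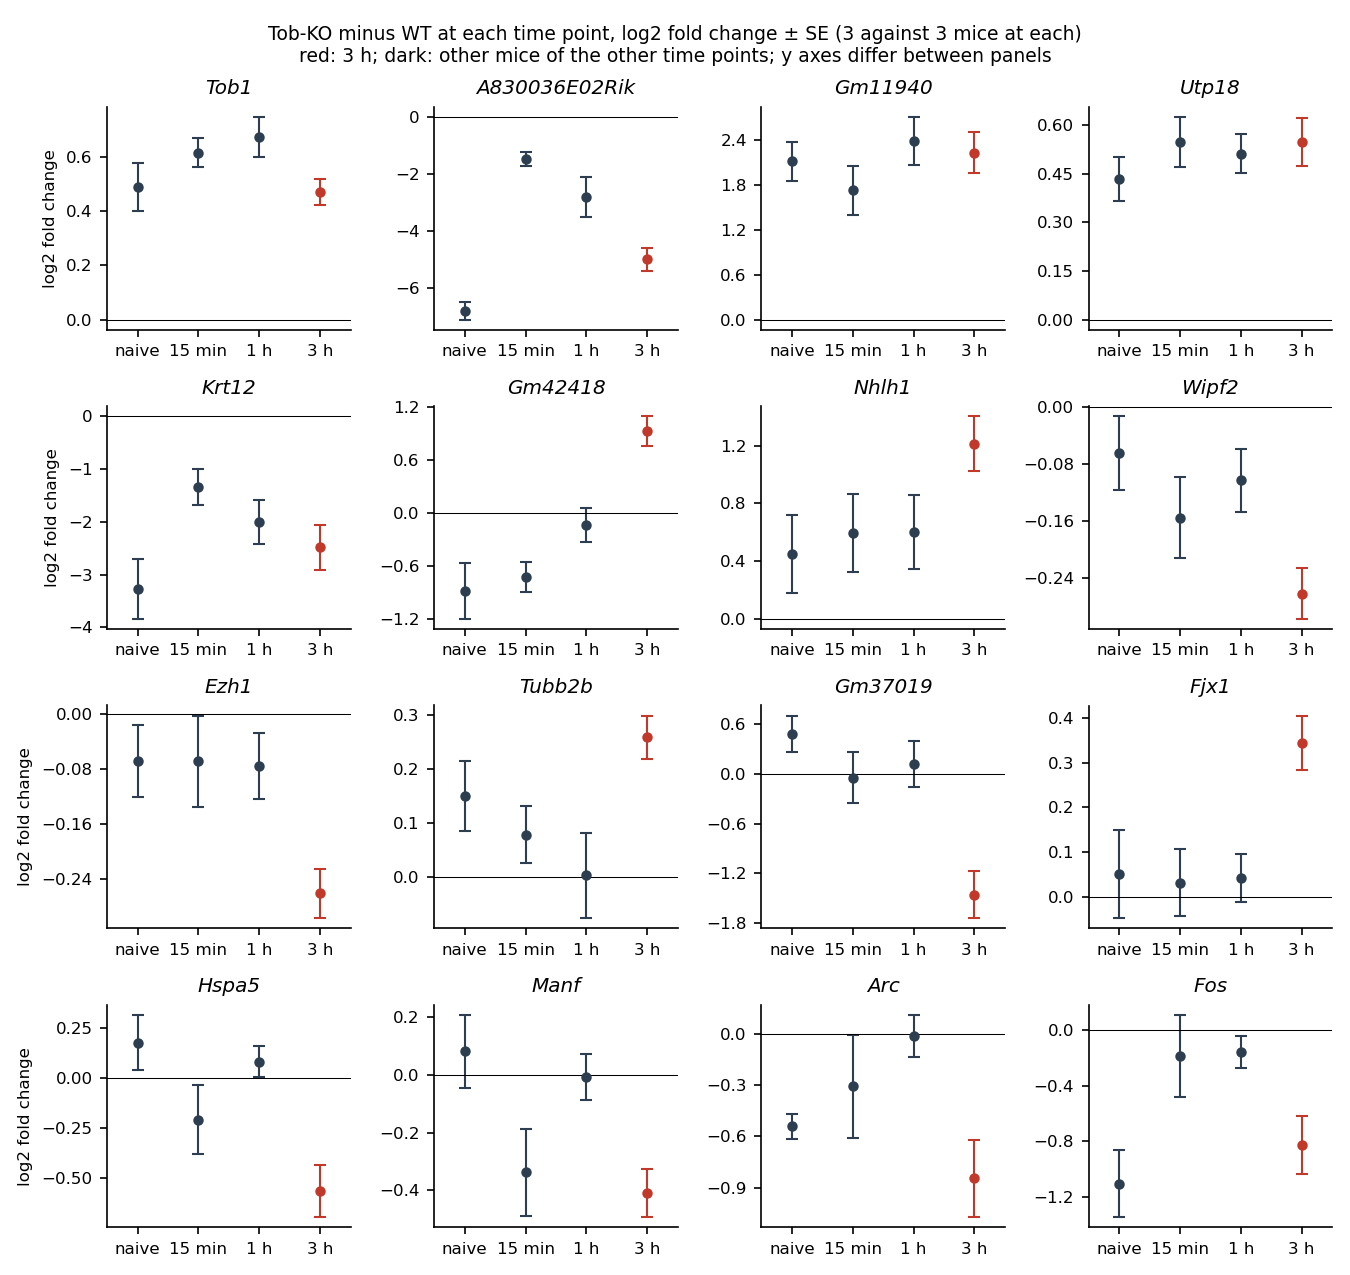
Log2 fold change, labelled Tob-KO minus WT, with its SE for the 12 called genes and for Hspa5, Manf, Arc and Fos at each time, naive to 3 h (x axis), 3 against 3 mice per time. Tob1, Gm11940 and Utp18 stay above 0 and Krt12 and A830036E02Rik below 0 throughout, Fjx1, Ezh1 and Hspa5 stand furthest from 0 at 3 h, and Arc and Fos are lowest in naive mice and at 3 h.

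Whether the genotype difference at 3 h differed from that at other times was tested directly. Against the mean of the other 3 time points, edgeR's quasi-likelihood test called 0 of 19500 genes, with 989 at an unadjusted p under 0.05 (5.07%) and a smallest adjusted p of 0.929. Against naive mice it called 0 of 18935, with 882 (4.66%) below that level and a smallest adjusted p of 0.909. DESeq2 also called 0 in both, where 845 and 683 genes had an unadjusted p under 0.05. No gene's difference was thus shown to be particular to 3 h. Of those under 0.05, 2.47% of all genes were more negative and 2.61% more positive at 3 h than the mean of the other times, and 2.30% and 2.36% against naive mice. Among the called genes, the unadjusted p of the difference from the other times was 0.000122 for Gm42418, 0.000135 for Gm37019, 0.00352 for Fjx1 and 0.00456 for Ezh1, and it was 0.17 for Tob1 and 0.452 for Utp18.

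For the ER genes, the median genotype difference was 0.072 in naive mice, -0.114 at 15 min and 0.048 at 1 h, with 0, 4 and 0 of 20 genes lower at an unadjusted p under 0.05 (1.84%, 3.09% and 2.19% of all genes). Hspa5 was at 339.8 ± 62.3 CPM (SD, n = 3) among the Tob-KO-labelled libraries of naive mice and 300.7 ± 34.8 CPM in naive WT, and at 279.5 ± 52.4 and 411.5 ± 47.0 CPM at 3 h. Change over time within a genotype was not tested. The genotype difference of 14 of the 20 genes was more negative at 3 h than in naive mice at an unadjusted p under 0.05 (2.30% of all genes), and that of 7 was more negative than the mean of the other times (2.47%). The values for Hspa5 were -0.74 (SE 0.21) against naive and -0.58 (SE 0.19) against the mean, and neither passed the adjustment.

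For the immediate early genes, the median genotype difference was -0.303 in naive mice, -0.272 at 15 min and -0.074 at 1 h. At these times 10, 5 and 3 genes were lower at an unadjusted p under 0.05 (1.84%, 3.09% and 2.19% of all genes). Arc was called lower in naive mice (log2 fold change -0.54, edgeR adjusted p = 2.10e-05). None of the 26 had a more negative difference at 3 h than in naive mice at an unadjusted p under 0.05. Arc was at 84.5 ± 5.91 CPM (SD, n = 3) among the Tob-KO-labelled libraries of naive mice and 62.4 ± 8.04 CPM at 3 h, and in WT at 123 ± 8.77 and 112 ± 42.3 CPM.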

How the data were processed

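Total RNA of the hippocampus was sequenced as 150-bp paired ends from poly(A) RNA. The submitters' processing notes name GRCm38, STAR (2.6.1d) and HTSeq (0.9.0). The authors deposited a table of counts per gene that had not been normalized. The annotation release, the strand setting and the treatment of duplicate and multimapping reads are not given in the sources used here. PCR reads carry no molecular identifiers, and overlapping or repeated genes are uncertain.

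Genes with at least 0.2 CPM in 2 of the 6 libraries were compared by the exact test of edgeR on TMM-scaled libraries (edgeR 4.0.16, R 4.3.3), the test and filter of the study's methods, and called at a Benjamini-Hochberg FDR of at most 0.05. Standard errors came from edgeR's quasi-likelihood fit, which also gave the tests of the difference between time points (8 group means over 24 libraries, or 12 libraries for 3 h and naive). DESeq2 (1.42.0), other scalings and filters, a dispersion from 24 libraries, a replicate block and the omission of each library were tried. The steps were tested on simulated counts. The chi-square between libraries used genes with at least 10 counts. Names were matched to GENCODE's GRCm38 annotation, and 45126 of 47593 (94.8%) matched a single gene. Another 27 names were dates, as a spreadsheet writes some symbols, and were not assigned. Promoters came from RefSeq (GRCm38.p6), read in Python 3.11.15, and figures were drawn with matplotlib 3.10.9.

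The comparison, the gene lists and their members were chosen with earlier results of these data known, and no set test was run. The text names Tob1, every called gene and the next 10 by p. It adds up to 6 members per list with an unadjusted p of at most 0.05. Also named are genes the study gives for its sequencing (Lcn2, Crhr2, Avpr1a, Mc3r, Ttr and Esr1) and Dusp1, whose protein it measured. Further members of a list given as values, and genes said to be chosen after their values were seen, fall outside that rule.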

Additional observations from a re-analysis of the deposited data

Results flagged for a closer look

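The genotype difference of Gm37019 pointed down in every library labelled Tob-KO at 3 h (log2 fold change -1.46) and up in every such library of naive mice (0.48), with groups that did not overlap at either time. The test of the difference between 3 h and naive mice gave -1.938 on the log2 scale (SE 0.33, unadjusted p = 7.93e-05, adjusted p = 0.909 with edgeR's quasi-likelihood test). It lies inside Itpk1, at 8 to 36 counts per library at 3 h.

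Gm42418 was higher in all 3 Tob-KO-labelled libraries at 3 h (log2 fold change 0.93) and lower in all 3 at 15 min (-0.73), a gap of 1.658. The difference between 3 h and 15 min was not tested by itself. Against the mean of the other 3 time points it was 1.52 (SE 0.32, unadjusted p = 0.000122, adjusted p = 0.929 with edgeR's quasi-likelihood test).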

How the results depend on the processing

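In place of 12 calls, the quasi-likelihood test gave 1, DESeq2 gave 27 and the quasi-likelihood test with a replicate block gave 0. Of at least 2-fold, 5 genes were called, against 1 with the quasi-likelihood test and 0 with the replicate block. Leaving out 1 library gave 6 to 51 calls, and 3 to 16 of at least 2-fold (16 without Tob-KO replicate 1, 14 without WT replicate 3 and 3 without Tob-KO replicate 3). RLE size factors or library size alone gave 12, no filter 13, filterByExpr 15 and a dispersion from 24 libraries 10. With the quasi-likelihood test, the genes called again were 1 of 12 in naive mice, 1 at 15 min and 0 at 1 h, in place of 4, 5 and 4. No alternative called a gene in either test of the difference between time points, leaving out the 15 min mice included, which was chosen after seeing the data.

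Replicates that share a number deviated from their group means with correlations of 0.084, -0.144 and 0.159, so the numbers were not taken to pair mice. With the block, 875 genes had an unadjusted p under 0.05, against 1095 without it. Of the 12 called genes' other settings, 116 kept the call and 52 kept the sign without it. Among the other named genes, 986 settings stayed on the same side and 43 passed the threshold. Crhr2, with a log2 fold change of 0.01, turned to -0.479, -0.00105 and -0.349 without Tob-KO replicate 1, WT replicate 2 and WT replicate 3 (highest 0.497, without WT replicate 1), and Esr1, also at 0.01, to -0.116, -0.0646, -0.148 and -0.220 without Tob-KO replicates 2 and 3 and WT replicates 2 and 3 (highest 0.494, without WT replicate 1). The cause was not tested. Depth limits genes under 1 CPM most.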

Other observations

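Clock and ribosomal protein genes were measured in the same comparison. Of 19 clock genes tested, 3 were lower and 0 higher at an unadjusted p under 0.05 (1.74% and 2.24% of all genes), none called. Tef, a PAR-bZIP output factor, was at 332, 376 and 332 CPM across the Tob-KO-labelled libraries and at 395, 391.5 and 395 CPM in WT (log2 fold change -0.19, SE 0.06, edgeR adjusted p = 0.87). Per3 had -0.23 (SE 0.09) and Bhlhe40 -0.16 (SE 0.07), both with overlapping groups. The summed clock level was 1545 to 1633 CPM against 1638 to 1735 CPM, a gap much smaller than the spread within each group. Groups did not overlap for 12.0% of all single genes tested, which is a share of genes and not of list sums. Several other lists also had sums that did not overlap, among them the BMP and SMAD, oligodendrocyte precursor and endothelial lists. The hour of day at which each group was culled is not given in the sources used here. Of 79 cytosolic ribosomal protein genes, 67 had positive estimates, 3 of them at an unadjusted p under 0.05 (Rpl41 0.15, Rps2 0.16 and Rps29 0.21). These 3 are 3.797% of the list, near the 2.24% of all genes. The list's median was 0.042 and its sums overlapped.

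Of 38 genes of glutamate receptors and their auxiliary subunits, 4 were higher and 0 lower at an unadjusted p under 0.05. Over all genes the shares were 2.24% and 1.74%, and none of the 38 was called. Grik5, a kainate receptor subunit, was at 265.6, 259 and 263 CPM against 232, 238 and 239 CPM (log2 fold change 0.14, SE 0.04, edgeR adjusted p = 0.863), and Cnih3 (0.20), Cacng4 (0.21) and the pentraxin receptor gene Nptxr (0.17) were the others. Without Tob-KO replicate 1 the list's median moved from 0.037 to 0.097. Among 24 genes of GABA transmission, only Gabra4 reached that level (0.12, SE 0.05). In the hormone lists, Crhbp, which binds corticotropin-releasing hormone, was at 35.6, 32.6 and 32.7 CPM against 27.6, 27.5 and 29.6 CPM (0.25, SE 0.06, edgeR adjusted p = 0.551), and the glucocorticoid-responsive genes Mt1 and Tsc22d3 had 0.16 (SE 0.04) and -0.24 (SE 0.11). None of 74 nuclear respiratory chain genes, 12 mitochondrial genome transcripts, 15 inflammatory genes or 12 neocortical markers had an unadjusted p under 0.05.

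Markers of other tissue went both ways. Of 14 striatal and septal genes, 11 had positive and 3 negative estimates, from -1.314 to 1.118, and their sums overlapped at 283.4 to 361.7 CPM against 240.4 to 327.3 CPM. Drd1 (0.42, SE 0.16) and Prkcd (0.43, SE 0.18) had an unadjusted p under 0.05, where 2.24% of all genes were higher. Of 10 thalamic and habenular genes, 6 had positive and 4 negative estimates, and Prkcd, which is in both lists, was the only member at that level. Of 12 ependymal genes, 8 had positive and 4 negative estimates, with sums of 50.1 to 68.4 CPM against 28.5 to 63.8 CPM and Tmem212 at 0.91 (SE 0.40). All 5 red cell and neutrophil genes had negative estimates, with Hba-a1 at -0.35 (SE 0.12). The summed levels overlapped in each of these lists, and no member was called.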
